A study of Drosophila melanogaster with 4 samples.

Results

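Among the stretches of chromatin that carried RNA polymerase II phosphorylated on serine 5 in Kc167 cells, 864 spanned 5 to 10 kb on the chromosome arms of Drosophila melanogaster. They were chosen by their measured width, as regions with a score above 0 and a width of at least 5000 and under 10000 bp in the list that the authors made from the pair of replicates, here the combined list. That list held 5074 enriched regions in all, of which 4830 lay on the 6 arms 2L, 2R, 3L, 3R, X and 4. A further 14 regions of this width on heterochromatin scaffolds and 1 on unplaced sequence U were outside the rule. Kc167 is a female cell line derived from late embryos, with the genotype se/e per the labels. Cells of this 1 line were fixed with formaldehyde, and the chromatin was precipitated with an affinity-purified rabbit polyclonal antibody against the serine 5 phosphorylated repeat of the polymerase. The series has 2 ChIP libraries and 2 libraries of input DNA from the same line, and nothing in the labels separates the groups by treatment. Whether the replicates came from separate cultures is not stated, so the spread between them may be technical. Called regions of the input DNA are not analysed here, and no background measured in the same way can be set beside the ChIP values.

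The largest subunit of RNA polymerase II ends in a tail of repeated heptads. The kinase of the general factor TFIIH phosphorylates serine 5 of these repeats as the enzyme leaves a promoter, and the mark helps to recruit the enzymes that cap the nascent RNA. In Drosophila cells the polymerase of many genes pauses just downstream of the start site, and the kinase P-TEFb, which also phosphorylates serine 2, releases it into the gene. A compact region of the serine 5 form is therefore the usual picture of a promoter with paused polymerase, while a longer one can follow polymerase into a transcribed unit, or cover several starts that lie close together. The deposited lists cannot separate these possibilities, since they give no strand and no gene. Positions refer to FlyBase release 5, whereas the gene table at hand belongs to release 6. Coordinates were not converted between the builds, so no gene overlap was computed and no gene is named. For the same reason, whether the widths match the lengths of genes was not tested, and the regions are called by their width.

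The 864 regions were the third most frequent width class but held more of the enriched bases than any other. They made up 17.9% of the 4830 enriched arm regions, against 53.7% for regions under 3 kb, 22.1% for those of 3 to 5 kb and 6.27% for those of 10 kb or more. Their 5.90 Mb were 29.7% of all enriched arm bases and 4.90% of the arm sequence. Regions under 3 kb held 27.6% of the enriched arm bases, those of 10 kb or more 22.2% and those of 3 to 5 kb 20.6%. Under the same width limits, the replicate 1 list held 709 regions and the replicate 2 list 775, a mean of 742 ± 46.7 (SD, n = 2). These held 27.7% ± 1.19 (SD, n = 2) of the enriched arm bases of their lists. In the replicate lists the first rank went to regions under 3 kb, with 32.6% ± 1.77 (SD, n = 2), so the order of these classes depends on which list is read.

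Widths within the class fell off steadily. The numbers of regions were 304 from 5 to 6 kb, 219 from 6 to 7 kb, 154 from 7 to 8 kb, 104 from 8 to 9 kb and 83 from 9 to 10 kb. The median width was 6.55 kb, with quartiles of 5.67 and 7.79 kb. In the replicate lists the medians were 6.46 and 6.37 kb. No separate peak of widths marked off the class on either side, as the plot of widths and scores shows, so its limits are a choice and not a break in the data.

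**Figure D1:**
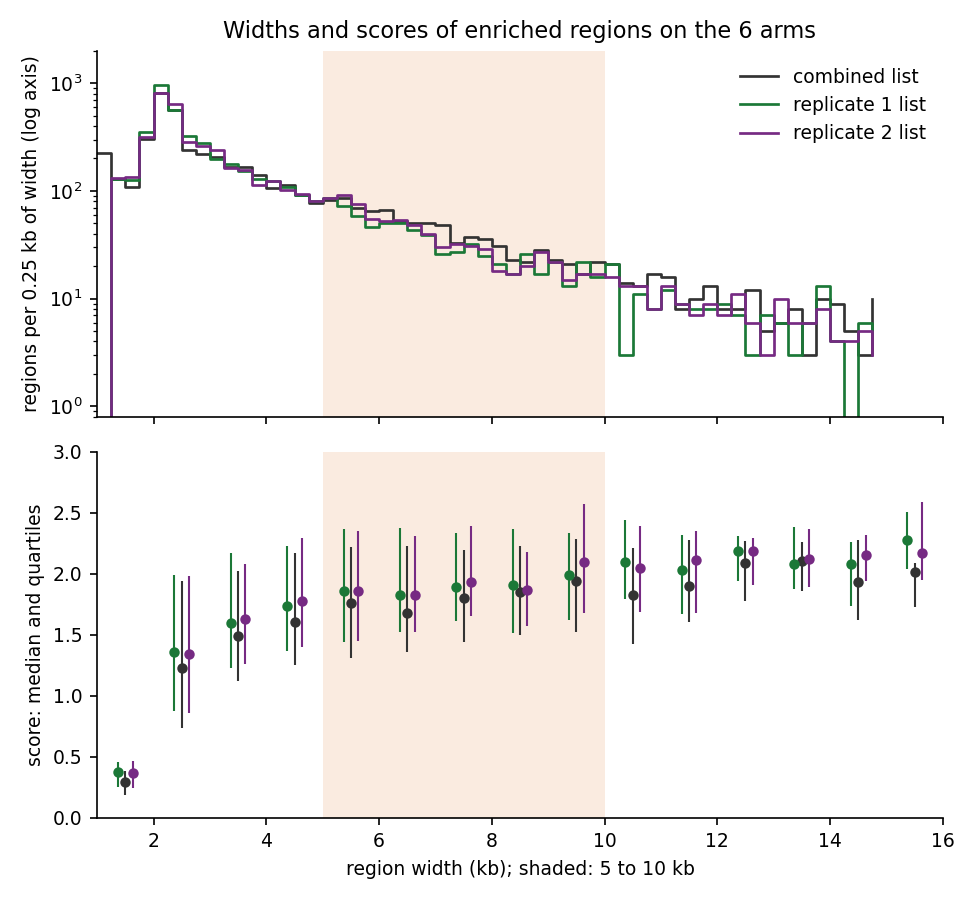
Number of enriched arm regions per 0.25 kb of width (upper panel, log axis, empty bins not drawn) and the median score with its quartiles per 1 kb of width (lower panel), for the combined list and both replicate lists. The numbers fell without a break across the shaded 5 to 10 kb, and the median score of the combined list stayed between 1.68 and 1.94 there, against 0.30 in regions of 1 to 2 kb.

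Levels of the score that the authors gave each region were compared within a list. Scores of 1 region in different lists are given side by side, although each list may have a constant of its own. The scale of the score is not named in the files. It was read as a log2 value, on which a step of 1 is a doubling, because pairs of scores exactly 1 apart recur in each list. The class was defined by width, and width and score come from the same libraries, so scores, neighbours and boundaries are described here with no test.

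Regions of 5 to 10 kb rarely scored low, and none was among the 20 highest scores of the arms. Their median score was 1.79 in the combined list, with quartiles of 1.37 and 2.23 and a range from 0.33 to 3.62. Over all arm regions the median was 1.37, and it was 0.86 for regions under 3 kb, 1.53 for 3 to 5 kb and 1.96 for 10 kb or more. Scores under 1 were found in 62 of the 864 regions (7.18%), against 1674 of all 4830 arm regions (34.7%). Of the 864, 314 (36.3%) scored above the upper quartile of all arm scores and 20 (2.31%) at or below the lower one. Regions of 10 kb or more went further, with 47.9% above the upper quartile, 1.32% at or below the lower one and 2.64% under 1. For 3 to 5 kb these shares were 26.9%, 7.39% and 16.9%. Few low scores were thus not particular to the class. Among the 483 arm regions with the highest scores, 10% of all, there were however 93 of them (19.3%), close to their 17.9% share of all arm regions. The strongest of them was number 21 in the order of arm scores, and the 20 above it were all narrower than 5 kb. The replicate lists gave median scores of 1.88 and 1.89 for regions of this width, against 1.46 and 1.50 over all their arm regions.

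Inside the class, score and width were almost unrelated. Spearman's rho across the 864 regions was 0.09 in the combined list, 0.07 over 709 regions of replicate 1 and 0.10 over 775 of replicate 2. Regions are not independent replicates, and score and width share the libraries and the caller. The median score was 1.76 from 5 to 6 kb, 1.68 from 6 to 7 kb, 1.80 from 7 to 8 kb, 1.85 from 8 to 9 kb and 1.94 from 9 to 10 kb. Regions just inside the limits had median scores near those just outside. The 83 members in the first 250 bp above the lower limit had a median score of 1.64 (range 0.35 to 3.62), and the 78 regions in the last 250 bp below it had 1.52 (0.35 to 4.49). At the upper limit, the 39 members in the last 500 bp had a median of 2.01 (1.12 to 3.07), and the 35 regions in the next 500 bp had 2.00 (0.87 to 3.16). In calling these small bands were less alike. In at least 1 replicate, 20 of the 83 members at the lower limit and 16 of the 39 at the upper one were split into 2 or more regions, against 9 of 78 and 5 of 35 just outside. A single region in each replicate, overlapping no other combined region, matched 75.9% of the members at the lower limit and 59.0% at the upper one, against 88.5% and 85.7% just outside. In steps of 1 kb, 6.43% were divided from 4 to 5 kb and 17.4% from 5 to 6 kb. From 9 to 10 kb it was 36.1% and from 10 to 11 kb 27.7%. With so few regions per band, no step at the limits can be read from these shares.

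The members nearest to a limit differ by a few bases from regions left out. The narrowest were a pair of 5005 bp, on 3R at 25757630 to 25762634 with a score of 0.96 and on X at 5222198 to 5227202 with 0.74, and the next was one of 5009 bp on 2L at 13175400 to 13180408 with 1.33. Just below the limit lay 3R at 8177982 to 8182980 (1 bp short, score 1.25), 2R at 16895816 to 16900812 (4997 bp, 1.18) and 2L at 10219570 to 10224558 (4989 bp, 2.50). The widest members were on 2R at 18685544 to 18695526 (9983 bp, score 1.94), on 2L at 10001332 to 10011302 (9971 bp, 1.53) and on 3L at 16777464 to 16787434 (9971 bp, 1.12). Just above the limit lay 3L at 3156492 to 3166508 (10017 bp, 1.32), X at 8601916 to 8611934 (10019 bp, 2.50) and 2L at 11984070 to 11994096 (10027 bp, 1.31). All these regions were found in both replicates.

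The 10 top-scoring members with an overlap in both replicates were each a single region in each replicate list. The first, on 3R at 17121074 to 17126198, scored 3.68 in replicate 1, 3.60 in replicate 2 and 3.62 in the combined list. The second, on 2R at 10243064 to 10252536, scored 3.72, 3.70 and 3.61 in the same order over 9.47 kb. On 3L, 7148800 to 7154066 scored 3.66, 3.58 and 3.60. The replicate scores of these 3 regions were thus within 0.1 of each other. On 2R, 5439154 to 5445120 scored 3.60 in replicate 1, 3.63 in replicate 2 and 3.59 in the combined list, and its end was the same base in both replicates. On X, 5792672 to 5799840 scored 3.52, 3.61 and 3.56. On 2R, 20787876 to 20792950 scored 3.55 in both replicates and 3.53 in the combined list, and it was under 5 kb in each replicate (4.96 and 4.82 kb). It is thus a member only through its wider boundaries in the combined list. On X, 5321386 to 5327866 scored 3.47, 3.59 and 3.52. On 3L, 539252 to 544416 scored 3.35, 3.49 and 3.41, and 8667756 to 8673802 scored 3.37, 3.45 and 3.40. The tenth, on 2L at 9612326 to 9618040, scored 3.35, 3.38 and 3.36. Of these 10 regions, all but the one of 9.47 kb were between 5.08 and 7.17 kb wide. Their surroundings differed. The member on 3L at 7148800 had no enriched region for 22.7 kb before it and 76.8 kb after it, whereas the one on 3L at 539252 had the next enriched region 0.557 kb after it and the one on X at 5321386 had one 0.845 kb before it.

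The 5 members with the lowest score were less settled. The lowest, on 2L at 529678 to 535090, scored 0.44 in replicate 1, 0.45 in replicate 2 and 0.33 in the combined list. Replicate 1 held 1.73 kb of it and replicate 2 1.31 kb, against 5.41 kb in the combined list. The second, on 3R at 14492780 to 14497950, scored 0.44, 0.33 and 0.35, and here both replicates kept nearly the whole width (4.79 and 5.16 kb). The next were on 2L at 18658218 to 18663324 with 0.37 in the combined list, on 3L at 14056780 to 14062834 with 0.38 and on 3R at 7397758 to 7402970 with 0.42. Replicate regions covered 64.0% and 32.5% of the first of these 3, 55.6% and 52.0% of the second, and 34.7% and 68.9% of the third. Apart from the second, these members were wide in the combined list and covered only in part in each replicate list.

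Regions of 5 to 10 kb mostly had close neighbours. The median gap to the nearest enriched region was 1.98 kb (quartiles 0.741 and 5.16 kb), against 2.52 kb over all arm regions, 3.13 kb for regions under 3 kb, 2.09 kb for 3 to 5 kb and 1.57 kb for 10 kb or more. Another enriched region lay within 5 kb of 641 of the 864 (74.2%), against 67.2% of all arm regions. Within 1 kb there was one for 274 (31.7%), against 28.7% of all arm regions. On both sides within 5 kb there was one for 240 (27.8%), against 22.1%. In the replicate lists, 72.2% ± 0.442 of the regions of this width had a neighbour within 5 kb, against 66.5% ± 0.449 of all arm regions (SD, n = 2). The difference between these shares exceeded the replicate SD. Regions of 3 to 5 kb however had 71.7% ± 0.589 and those of 10 kb or more 77.4% ± 0.226 (SD, n = 2). The mean of the replicate median gaps was 2.19 kb for the class, against 2.16 kb for 3 to 5 kb. Close neighbours were thus not particular to the class. At the other end, 40 members (4.63%) had more than 20 kb free on both sides, against 432 (8.94%) of all arm regions. The member with the longest free stretch to its nearest neighbour, chosen after the values were seen, lay on 2L at 15498070 to 15505372 with 163 kb free before it and 178 kb after it. It was a single region in each replicate, with scores of 1.72 and 1.74.

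**Figure D2:**
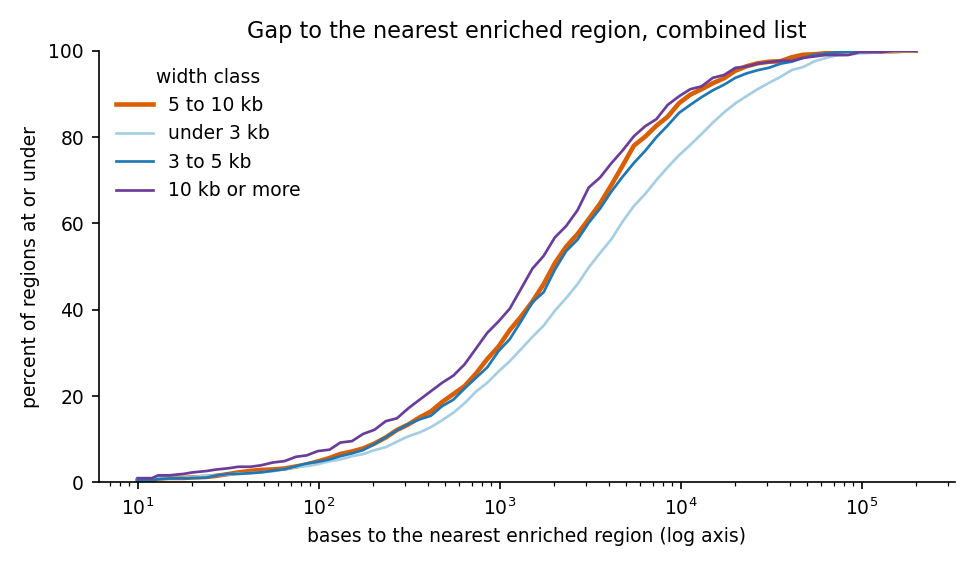
Percent of enriched arm regions in the combined list whose nearest enriched region lay within the distance on the x axis (log axis), by width class. At 5 kb the curve of the 5 to 10 kb class stood at 74.2%, above the 71.9% of the 3 to 5 kb class and the 61.8% of the class under 3 kb, and below the 77.6% of the class of 10 kb or more.

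In width, neighbours were a cross-section of the list. Of all regions directly before or after a member, 51.6% were under 3 kb, 21.9% 3 to 5 kb, 19.6% 5 to 10 kb and 6.89% 10 kb or more. The shares of these classes among all arm regions were 53.7%, 22.1%, 17.9% and 6.27%. The nearest neighbour scored lower than the member in 618 of 864 cases (71.5%), against 51.8% of all arm regions, and its median score was 1.24, against 1.34. By class the share was 39.0% under 3 kb, 59.9% from 3 to 5 kb and 77.2% at 10 kb or more, and it thus followed the order of the median scores of the classes. Where the nearest neighbour was within 5 kb, it scored lower in 451 of 641 cases (70.4%). Members with a higher score had somewhat wider gaps, with a Spearman's rho of 0.16 over the 864 regions, 0.14 in replicate 1 and 0.11 in replicate 2, which is a weak relation.

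Members beside other members were about as frequent as over the whole list. With no other enriched region between them, 562 members (65.0%) stood singly, 210 in pairs, 66 in runs of 3, 16 in runs of 4 and 10 in a pair of runs of 5. No region of 5 to 10 kb lay directly before or after 68.0% of all arm regions, a share near that of the members. The tightest run of 5, on 2R at 4777678 to 4816904, filled 85.1% of 39.2 kb, with gaps from 0.257 to 4.71 kb and scores from 1.36 to 1.81. The other run of 5, on 3R at 158056 to 234164, spread over 76.1 kb, of which 41.1% was enriched, and one of its gaps was 38.9 kb. The most compact runs of 4 lay on 2L at 10310380 to 10343882, on 3L at 1493912 to 1538396 and on X at 10983444 to 11034680, and they were 64.5%, 54.7% and 47.9% enriched. Scores within the run on 3L went as low as 1.34 and as high as 2.89, so members of 1 run were not alike in strength.

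Nearly every member was found again in the replicate lists, but 25% of them were split in at least 1 list. A region of each replicate overlapped 863 of the 864 members by at least 1 bp (99.9%), against 88.2% of all arm regions. The share was 99.3% for regions of 3 to 5 kb and 100% for those of 10 kb or more, and only regions under 3 kb had a low one (78.3%). The 1 member without such an overlap, on X at 17554812 to 17562150 with a score of 0.45, had no region in replicate 1 and 2 short regions covering 38.7% of it in replicate 2. By the same rule of 1 region in each replicate, 647 members were matched (74.9%), against 80.2% of all arm regions. The combined list is assumed to come from these same libraries, so the recovery does not bear on reproducibility.

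Members were often divided in the replicates. In at least 1 replicate, 216 of the 864 (25%) were split into 2 or more regions, against 7.89% of all arm regions, and in both replicates 91 were (10.5%), against 3.33%. Width limits this count. The narrowest regions of the replicate lists were 1304 and 1303 bp wide, and 86.6% of the 2594 combined regions under 3 kb had no room for a pair of such regions. None of those 2594 was divided, so the share over all arm regions is low in part by their width. Of the 2236 arm regions of 3 kb or more, 381 (17.0%) were divided, among them 35 of 1069 (3.27%) from 3 to 5 kb and 130 of 303 (42.9%) of 10 kb or more. Within the class it was 17.4% from 5 to 6 kb, 23.3% from 6 to 7 kb, 27.3% from 7 to 8 kb, 38.5% from 8 to 9 kb and 36.1% from 9 to 10 kb, and it was 27.7% from 10 to 11 kb. Replicate 1 divided 176 members and replicate 2 131, and 85 were divided in replicate 1 but single in replicate 2, while 39 were divided in replicate 2 but single in replicate 1. Divided members had a median score of 1.49 and a median width of 7.03 kb, against 1.87 and 6.43 kb for the undivided ones.

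The breaks were mostly narrow. Their median length was 286 bp in replicate 1 (186 breaks, quartiles 103 and 585 bp) and 240 bp in replicate 2 (135 breaks, quartiles 88.5 and 534 bp). The shortest were 1 and 2 bp and the longest 2167 and 2133 bp. The middle of the break lay between 33.3% and 66.7% of the width of the member for 78% of the breaks in replicate 1 and 74.1% in replicate 2. No replicate region was narrower than 1304 and 1303 bp, which keeps most breaks away from the ends of a member. These shares therefore do not show that breaks prefer the centre. Of the 91 members divided in both replicates, 78 had a break at overlapping positions, and the median distance between the nearest break centres was 105 bp.

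The pieces of a divided member differed in score about as much as other close pairs of regions. Replicate 1 divided 166 members into exactly 2, with median widths of 3.77 kb for the wider and 2.42 kb for the narrower piece. In replicate 2 the 128 such members had medians of 3.93 and 2.31 kb. The median difference in score between the pieces was 0.81 in replicate 1 and 0.73 in replicate 2, and it was 1 or more in 61 (36.7%) and 41 (32.0%) of the members. The wider piece scored higher in 108 of 166 and in 93 of 128. This count was not made for other close pairs, so it is not read as a trait of divided members. Over all arm regions of replicate 1, the median score also rose with width, from 1.36 at 2 to 3 kb to 1.60 at 3 to 4 kb. For the size of the difference, neighbouring regions of a replicate list at most 1 kb apart served for comparison, a choice made after seeing the data. Pairs inside 1 member differed by a median of 0.80 in replicate 1 (164 pairs) and 0.73 in replicate 2 (122 pairs). Pairs not inside 1 combined region differed by 0.86 (391 pairs) and 0.84 (431 pairs). By this measure the pieces of a member were no further apart than other close pairs.

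The 5 members divided into the most regions are given piece by piece. On 2L, 7048216 to 7057426 scored 1.01 as 1 region, while replicate 1 gave 2 pieces with scores of 1.47 and 0.61, and replicate 2 gave 4 with 1.51, 0.53, 0.55 and 0.81. On 2R, 8145808 to 8155332 scored 2.07, with pieces of 2.68 and 0.49 in replicate 1 and of 2.45, 0.45 and 0.41 in replicate 2. Both had the strongest piece at the end with the lower coordinate. On 3L, 22393746 to 22402086 scored 2.09, and there the strongest piece was the last, with 3.03 in replicate 1 and 3.02 in replicate 2, while the pieces before it stayed between 0.35 and 0.60. On 3L, 19598292 to 19606884 scored 1.19, with 1.64, 0.42 and 1.32 in replicate 1 and 1.38 and 1.28 in replicate 2. On 2L, 1704048 to 1712324 scored 1.04, with 0.73, 0.41 and 1.53 in replicate 1 and 0.95 and 1.23 in replicate 2. In replicate 1, both of these members had stronger pieces at the ends and a weak piece between them. Replicate 2 had no separate middle piece, and on 2L its piece of 1.23 reached across the middle. The lists give no strand, so the end at which transcription starts is not known.

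**Figure D3:**
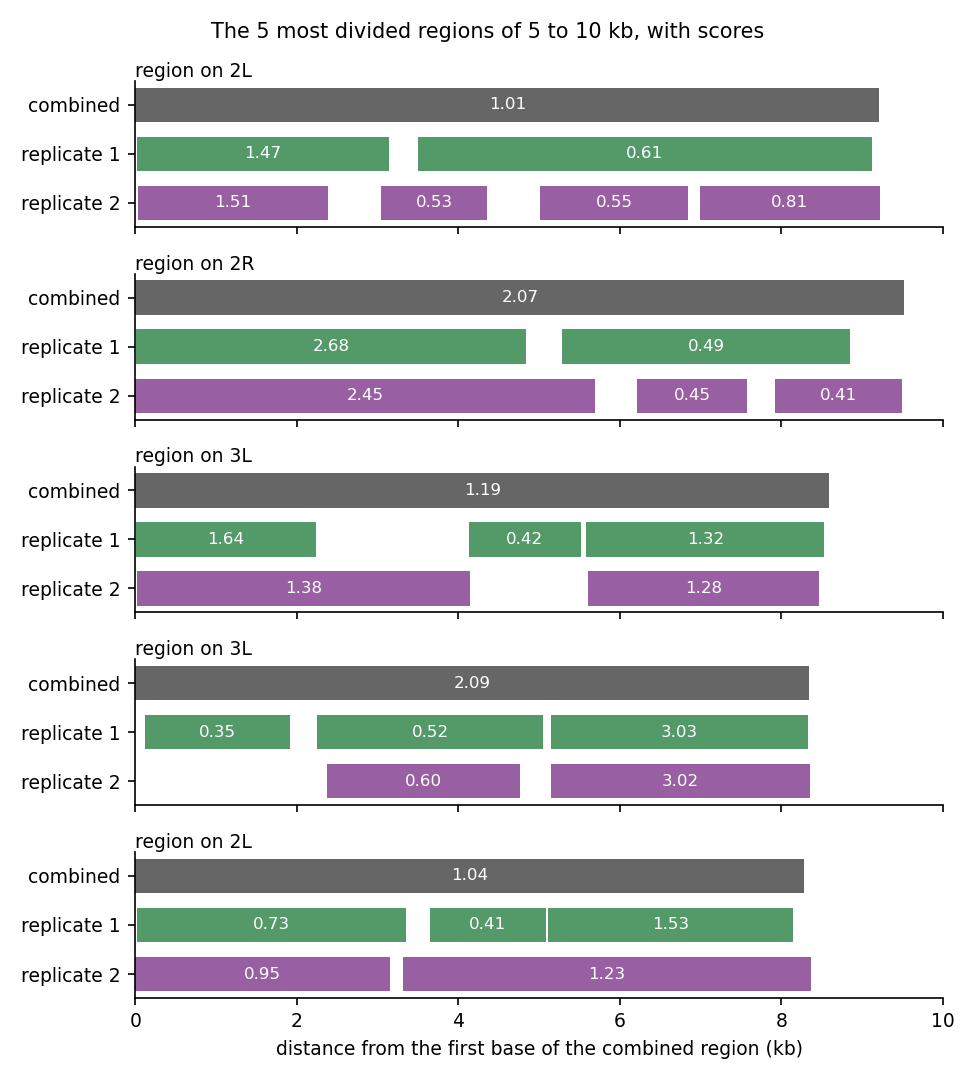
The 5 members divided into the most replicate regions, as called in the combined list and in each replicate, drawn by distance from the first base of the combined region. The number in each bar is its score, and the region of 2R shows a combined score of 2.07 over pieces of 2.68 and 0.49 in replicate 1.

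Where a member was matched by a single region in each replicate, the boundaries were close. Over the 647 matched members, the replicates differed at the start by a median of 48 bp (upper quartile 170 bp, at most 2432 bp) and at the end by a median of 43 bp (upper quartile 120 bp, at most 3489 bp). Both boundaries were within 100 bp in 305 members (47.1%), and at least 1 differed by more than 1 kb in 36 (5.56%). Boundaries of matched regions of 3 to 5 kb differed by medians of 49 and 47 bp at start and end, those of 10 kb or more by 45 and 56 bp, and those under 3 kb by 22 and 23 bp. The spread of boundary positions in the 5 to 10 kb class was thus like that of its neighbours in width and about double that of regions under 3 kb. Start and end were the same base in both replicates in 6 members each.

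**Figure D4:**
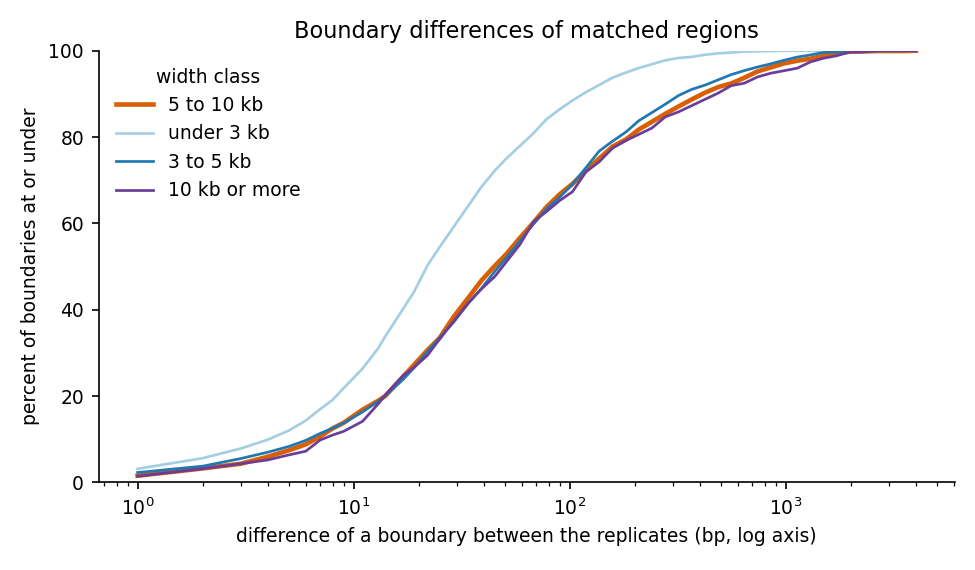
Percent of boundaries (starts and ends together) of matched regions whose positions in the replicate lists differed by at most the distance on the x axis (log axis), by combined width class. The median was 45 bp for the 5 to 10 kb class, 48 bp for 3 to 5 kb, 49 bp for 10 kb or more and 22 bp for under 3 kb.

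The combined regions were slightly wider than their parts. Among the 647 matched members, the combined start lay before both replicate starts in 477, the combined end after both replicate ends in 483, and both held in 358. The median loss of width was 187 bp in replicate 1 and 116 bp in replicate 2. Over all 864 members, divided ones included, replicate regions covered a median of 95.8% and 97.8% of a member (lower quartiles 88.9% and 91.8%). The largest region overlapping a member was itself 5 to 10 kb wide in both replicates for 571 members (66.1%), and under 5 kb in both for 155. In replicate 1, 601 of 709 regions of this width fell into a member and 108 (15.2%) into a combined region of 10 kb or more. In replicate 2 the numbers were 678 of 775 and 95 (12.3%), and 2 fell into a region of 3 to 5 kb. Membership thus changed with the list, mostly through replicate regions that were narrower than the combined ones. For no member was the largest overlapping replicate region 10 kb wide or more.

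Of the 5 matched members with the largest boundary difference, 4 were wider in replicate 2. On 2L, 18648782 to 18655124 spanned 2.37 kb in replicate 1 and 5.99 kb in replicate 2, with a difference of 3489 bp at the end and scores of 0.50 and 0.53. On X, 7174656 to 7182626 spanned 6.81 and 4.66 kb, with 2432 bp at the start and scores of 2.03 and 2.24. On 3L, 3457050 to 3462506 spanned 3.28 and 5.47 kb, with 2176 bp at the start and scores of 1.57 and 1.40. The member on X is the one that was wider in replicate 1. The other two were the member on 3R at 7397758 described above, with 1948 bp at the end, and one on 3L at 9611170 to 9618254, with 1841 bp at the start and scores of 0.79 and 0.93. In the X and 3457050 members, the narrower of the replicate regions had the higher score.

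Stronger members were called more evenly than weaker ones. With scores under 1, from 1 to 2, from 2 to 3 and of 3 or more there were 62, 487, 288 and 27 members. In this order, 54.8%, 27.9%, 15.6% and 3.70% of them were divided in a replicate. The median boundary difference of the matched ones was 67, 53.5, 36 and 29.5 bp. A neighbour within 5 kb was found for 87.1%, 77.0%, 68.4% and 55.6%. The bands were made from the combined score, which shares its libraries with these measures.

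Scores of matched members were nearly the same in the replicates. The absolute difference had a median of 0.06 and a maximum of 0.50, and replicate 2 was the higher in 411 of 647 (median difference, replicate 2 minus replicate 1, 0.03, in which a constant between the lists is included). Across the 647 members the scores correlated with a Pearson's r of 0.989 and a Spearman's rho of 0.987, and the widths with 0.948 and 0.935. These are across regions of the same 2 libraries, matched because both lists held them.

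Every arm carried regions of 5 to 10 kb, and 2R the most. The combined list held 200 on 2R (9.46 per Mb), 164 on X (7.31), 161 on 2L (7.00), 183 on 3R (6.56), 148 on 3L (6.03) and 8 on chromosome 4 (5.92). In the replicate lists there were 6.81 and 7.85 per Mb on 2R, 6.07 and 6.78 on X, 5.87 and 6.17 on 2L, 5.45 and 6.02 on 3R, and 5.50 and 5.79 on 3L. The 2R values did not overlap with those of another arm, and within each replicate list 2R was above X. The lowest 2R value was however within 0.1 of the highest of X. The means of 7.33 ± 0.736 on 2R and of 6.42 ± 0.505 on X (SD, n = 2) differed by about as much as the replicates did. Replicate 2 was the higher on each large arm, so these SDs include a shift between the lists that the arms share. Below 2R and X, the values of 3R overlapped with those of 2L and of 3L. Both values of 2L lay above both of 3L, with means of 6.02 ± 0.215 and 5.64 ± 0.202 (SD, n = 2). Chromosome 4 held 7 and 5 regions, too few to rank. The density of 2R went with its many regions of all widths: the class made up 15.6% ± 1.74 of the 2R regions, against 16.9% ± 1.63 on X, 16.7% ± 0.726 on 2L, 15.7% ± 1.19 on 3R and 14.8% ± 0.530 on 3L (SD, n = 2). By this share 2R did not stand apart. In the combined list the shares were 19.7% on 2R, 18.7% on X, 18.4% on 2L, 17.6% on 3R and 15.4% on 3L.

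**Figure D5:**
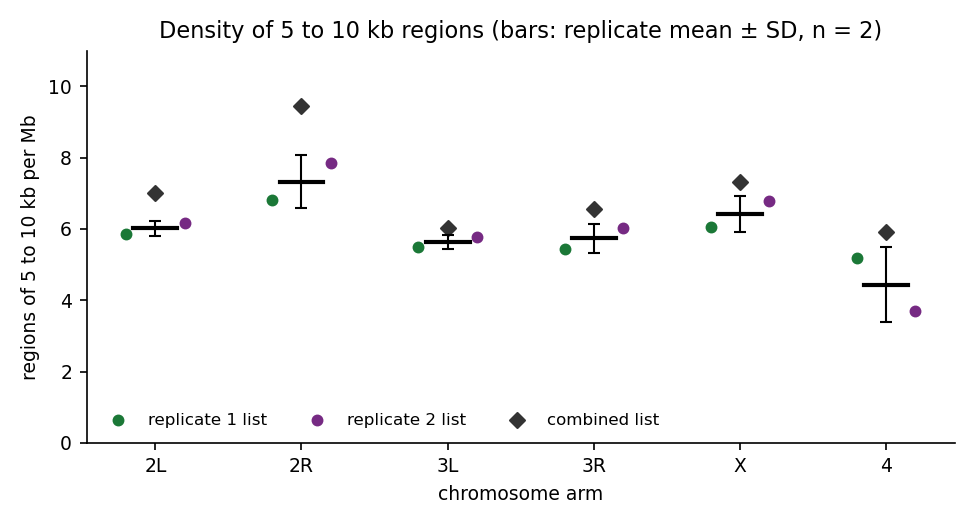
Regions of 5 to 10 kb per Mb of each chromosome arm in the replicate lists (circles, with their mean and SD, n = 2) and in the combined list (diamonds). On 2R the replicates had 6.81 and 7.85 per Mb and the combined list 9.46, and on every arm the combined list lay above both replicates.

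Median scores varied little between arms, and spacing varied more. The median score of the members in the combined list was 1.90 on 2R, 1.81 on 2L, 1.76 on chromosome 4, 1.75 on 3L, 1.69 on 3R and 1.68 on X, each well inside the quartiles of the class. In the replicates 2R was again highest among the 5 large arms, with 2.01 and 1.98, and the other large arms had 1.83 to 1.89. A neighbour within 5 kb was found for 80.0% of the members on 2R, 79.9% on X, 74.5% on 2L, 71.6% on 3R and 63.5% on 3L. Over all combined regions of these arms, in the same order, the shares were 69.8%, 70.3%, 67.2%, 68.2% and 61.9%, and 3L was again the lowest. In the replicate lists, regions of 5 to 10 kb had 76.4% and 75.3% on 2R, 75.7% and 74.3% on X and 75.6% and 76.1% on 2L. On 3L they had 68.9% and 65.5%, and on 3R 66.4% and 68.5%. The replicate values of 2R, X and 2L for this width thus did not overlap with those of 3L and 3R, and 3L and 3R overlapped with each other. Over all regions of the replicate lists, 3R had 67.1% and 67.5%, above 2L in both lists. These 3R values lay between the X values of 67.8% and 66.2%. There 3L was the lowest of these arms, with 63.1% and 63.3%, and 2R the highest. Regions of this width on 3R were below all 3R regions in replicate 1 and above them in replicate 2. In the replicate lists, 3R thus stood beside 3L for this width only. In the combined list, members on 3R (71.6%) were closer to those on 2L (74.5%) than to those on 3L (63.5%).

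Along the arms, members were spread widely. Of 120 windows of 1 Mb, 1 held none, and the median was 7 (quartiles 4 and 9.25). The most were 18 on X from 15 to 16 Mb, with 14 and 16 in the replicates, 17 on 2R from 19 to 20 Mb, with 11 and 15, and 17 on 2L from 10 to 11 Mb, with 15 and 16. The fewest were 0 on 2L from 14 to 15 Mb in all 3 lists, 1 on 2L from 17 to 18 Mb, with 1 in each replicate, and 1 on X from 18 to 19 Mb, with 1 and 2. The X window with 1 member held 27 other enriched regions, whereas the empty window on 2L held 12, so few members did not always mean few regions. Across windows, the number of members and of other regions had a Pearson's r of 0.444 and a Spearman's rho of 0.452. Windows share libraries and gene density, and no p-value is attached. The replicate numbers of regions of this width per window correlated with an r of 0.920 and a rho of 0.908, and their SD within a window was at most 2.83.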

How the data were processed

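ChIP-seq libraries of Kc167 cells were aligned with Bowtie 0.12.7, per the submitters' processing notes. The authors deposited called regions for each of 2 ChIP replicates and 1 list for the replicate set, each with a start, an end and a score. Positions are on FlyBase release 5, per the file headers, and all starts and ends of the combined list are even numbers. The caller, its threshold, its control and the scale of the score have no statement in the labels or headers. Another score exactly 1 higher (tolerance 1e-10) existed for 97, 108 and 90 scores of the combined, replicate 1 and replicate 2 lists, and 0 differed by the natural or common logarithm of 2. No counts or depths are given, so the depth is unknown.

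Regions were selected by width (at least 5000, under 10000 bp), shared from an overlap of 1 bp, and matched where 1 region of each replicate overlapped 1 combined region only. Gaps are the bases between regions of a list. Windows were assigned by region centre, and a last window under 50% of 1 Mb was left out. All results are descriptions; mean ± SD refers to n = 2 replicate lists. Functions were tested on simulated data. Named regions followed a rule set by score, boundary difference, number of pieces, runs, windows and width limits. The members and this rule were chosen with earlier results of these data known. Equal runs were ordered by span. Alternatives were merging regions at most 500 bp apart, a score of at least 1, widths of 5.5 to 9.5 kb, a reciprocal overlap of 50% and each replicate list. Scripts ran in Python 3.11.15 with pandas 2.3.3, numpy 2.4.6, matplotlib 3.10.9 (figures) and scipy 1.17.1.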

Additional observations from a re-analysis of the deposited data

How the results depend on the processing

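The number of regions of 5 to 10 kb stayed within 1.5 times the 864 of the combined list under all alternatives, from 656 with widths of 5.5 to 9.5 kb to 880 after merging regions at most 500 bp apart. The replicate mean of 742 became 775 without replicate 1 and 709 without replicate 2. Their share of enriched arm bases (29.7%) was 34.4% with scores of at least 1, 23.3% with the narrower limits and 26.9% in replicate 1. Their median score (1.79) was 1.74 after merging, 1.83 with scores of at least 1, and 1.88 and 1.89 in the replicates. A neighbour within 5 kb (74.2%) was found for 67.4% after merging, which removes gaps of up to 500 bp by construction. It was found for 52.1% among scores of at least 1, where fewer regions remain by construction. With the narrower limits it was 74.7%, and in the replicates 72.5% and 71.9%. The shares after merging and with the score limit have no share of all arm regions beside them. They therefore cannot be set against the one given above for the unchanged list. The share matched by 1 region in each replicate (74.9%) was 83.3% after merging, 89.5% with scores of at least 1 and 90.9% with a reciprocal overlap of 50%. Each of these alternatives changes by construction which regions are counted as overlapping. The higher shares therefore do not show closer agreement of the replicates. How much each kind of region contributed was not tested. The median boundary difference of 45 bp was between 44 and 49 bp. No paired analysis was possible because the region lists used here all belong to the ChIP libraries, so no other group can be paired with them, and every result is a description with no test. Depth is unknown, and with 2 replicates the SD is itself imprecise.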

Other observations

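Few regions typed as depleted lay near members. Of the 864 members, 4 (0.463%) had a depleted region within 5 kb, against 36 of all 4830 arm regions (0.745%). The combined list held 67 depleted regions, and the replicate lists 17 and 16, with 1 region of 5 to 10 kb within 5 kb of a depleted one in each. On heterochromatin scaffolds, regions of 5 to 10 kb numbered 8 in replicate 1, 14 in replicate 2 and 14 in the combined list.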
